A study of Schizosaccharomyces pombe with 24 samples.

Results

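Transcript levels of 9 fission yeast genes that carry the mating pheromone signal from the receptor to cell fusion were followed through nitrogen starvation in 2 strains. The genes were gpa1 (SPBC24C6.06), rgs1 (SPAC22F3.12c), ras1 (SPAC17H9.09c), ste6 (SPCC1442.01), ste4 (SPAC1565.04c), byr2 (SPBC1D7.05), byr1 (SPAC1D4.13), spk1 (SPAC31G5.09c) and fus1 (SPAC20G4.02c). They were taken by systematic name as the core of the pathway, with earlier results of these data known, and all 9 were found among the 6877 genes of the count tables. Each of them also passed the filter on low counts that kept 5664 genes for testing. The study starved Schizosaccharomyces pombe of nitrogen and compared a wild type with a strain lacking clr4. The wt group is strain 975 of mating type h+, and the clr4D group carries the same background with the allele clr4D::NatMX6, in which a drug resistance marker replaces clr4 (Clr4 methylates histone H3 at lysine 9). Cells of both strains grew at 32 °C in Edinburgh minimal medium (EMM) with adenine, histidine, leucine, lysine and uracil at 225 ug/ml each, and were then moved to EMM without nitrogen. RNA was taken at 0, 1, 2, 4, 10 and 24 h with 2 replicates, called biological in the series description, which gives 12 groups and 24 libraries. The labels do not say whether the deletion strain is 1 clone.

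In fission yeast, starvation for nitrogen lets cells of opposite mating type mate. P cells (h+) secrete P-factor and detect M-factor, and M cells (h-) do the reverse. An occupied receptor acts through the G protein alpha subunit Gpa1, and Rgs1, a regulator of G protein signalling, restrains that step. The small GTPase Ras1, loaded with GTP by its exchange factor Ste6, and the adaptor Ste4 then act on the kinase Byr2, which heads a mitogen-activated protein kinase (MAPK) cascade through Byr1 to Spk1. The output includes the transcription factor Ste11 and its mating genes, and in the end the formin Fus1, which builds the actin structure at the site where partner cells fuse. Clr4 keeps heterochromatin silent, among other places at the spare mating-type cassettes.

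Libraries held 637723 to 4427020 reads on genes, with a median of 1436782. Levels are CPM, the reads on a gene relative to the gene reads of its library, after TMM scaling between libraries. A count of 0 allows up to 3 reads, or 0.678 to 4.70 CPM depending on the library, for counting error only. The libraries of a group correlated at 0.9595 to 0.9905 (Pearson, across genes), least well at wt 4 h, and wt 4 h replicate 2 had the fewest reads. Reads on the clr4 feature were present in all 24 libraries, between 89.3 and 172 CPM in wt and between 112 and 427 CPM in clr4D. At 0, 1 and 24 h the clr4 feature was called higher in clr4D, by 1.36 ± 0.24, 1.89 ± 0.24 and 0.98 ± 0.21 (log2, SE). The feature does not show the deletion, and which part of it was removed is not given in the sources used here, so wt and clr4D below mean the libraries that carry those labels. Every strain difference below rests on these labels. In these bulk samples, fewer cells of a kind and less RNA per cell cannot be told apart. The reference annotation places another feature over each of the 9 genes, mostly on the opposite strand. The strand setting of the counting is not given in the sources used here. If reads were counted without strand, the value of a gene may include reads from the opposite strand, which cannot be told apart from its own. Reads set aside in counting as ambiguous between features made up 0.945% to 1.41% per library, and the strand setting was not tested.

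The clr4D and wt libraries were set against each other at each time (log2 differences, clr4D minus wt, edgeR quasi-likelihood test, called at an adjusted p under 0.05 over all 5664 genes). At 0 h, 0 of the 9 genes differed at that threshold, and 0 of 9 had an unadjusted p under 0.05. DESeq2 also called 0. Of all genes tested, 0.194% were called higher and 0.0353% lower at that time. At 1 h only rgs1 was called higher, against 0.459% of all genes called higher and 0.212% lower. At 2 h, 5 of the 9 were called higher (rgs1, ste6, fus1, spk1 and ste4), where 1.32% of all genes were higher and 0.23% lower. At 4 h gpa1 joined them, which made 6 of 9 against 5.19% higher and 9.82% lower among all genes. With only the 4 libraries of 4 h fitted, 3 of 9 were called higher, and 92 genes in all were called against 850 in the main fit. The TMM factor of wt 4 h replicate 2 was 0.695, beside 1.014 for replicate 1. At 10 h, 8 of 9 were called higher, all but byr1, against 12% higher and 12% lower overall. At 24 h the 6 genes of 4 h were called again, against 5.63% and 3.16%. In these 6 comparisons none of the 9 was called lower in clr4D. The median difference of the 9 genes was -0.07 at 0 h and 1.10 at 10 h, while that of all genes tested was 0.01 and -0.02.

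**Figure D1:**
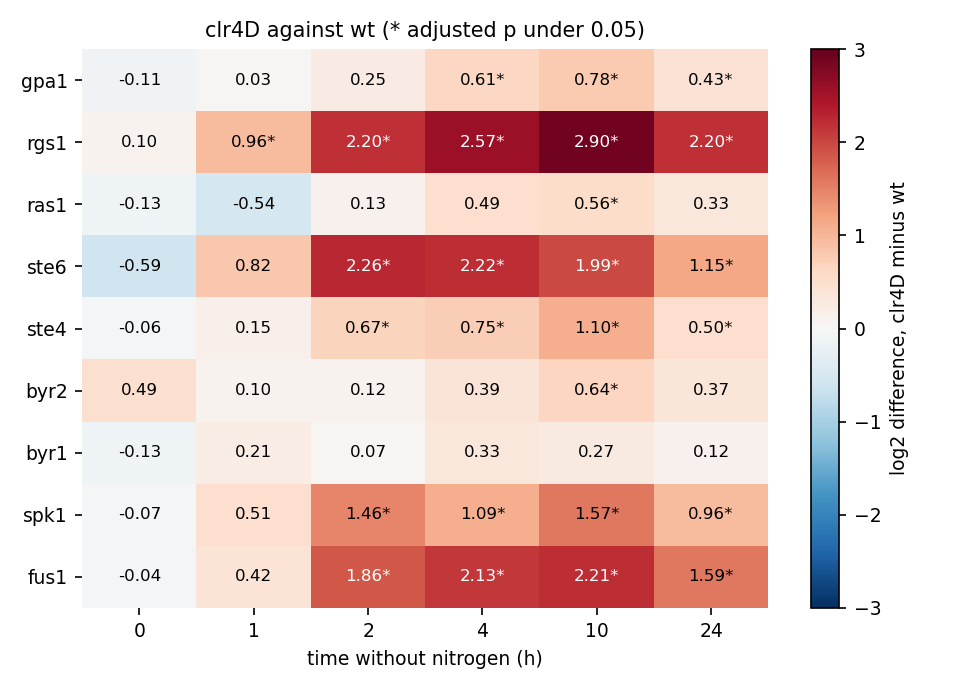
Log2 difference in level between the clr4D and wt libraries (clr4D minus wt) for each of the 9 genes (rows) at each time without nitrogen (columns, h). Colour and number give the difference, and an asterisk marks an adjusted p under 0.05. The rows of rgs1, ste6, fus1 and spk1 are called from 2 h to 24 h, while byr1 is called at no time.

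The G protein alpha subunit gene gpa1 rose in both strains within the first hour, and its level was called higher in clr4D from 4 h on. In wt, gpa1 stood at 82.1 and 91.2 CPM at 0 h, 181 and 166 at 1 h, 184 and 215 at 2 h, 263 and 224 at 4 h, 270 and 241 at 10 h and 272 and 252 at 24 h. The clr4D libraries held it at 89.1 and 63.3 CPM at 0 h, 187 and 169 at 1 h, 239.7 and 235 at 2 h, 384 and 372 at 4 h, 448 and 433 at 10 h and 353 and 353 at 24 h. The strains overlapped at 0 and 1 h, and from 4 h on both clr4D libraries lay above every wt library of any time. The wt level rose by 1.02 ± 0.15 from 0 h to 1 h (log2, SE) and stood 1.60 ± 0.15 above 0 h at 24 h, with adjusted p of 4.44e-06 and 3.67e-09. The difference between strains was 0.61 ± 0.13 at 4 h, 0.78 ± 0.13 at 10 h and 0.43 ± 0.13 at 24 h, the middle one 1.72-fold with an adjusted p of 7.83e-05. The 4 h call was lost when only the 4 libraries of that time were fitted (adjusted p = 0.249), and the 24 h call when any of its 4 libraries was left out or libraries were scaled by their totals alone. The antisense RNA SPNCRNA.1503 over gpa1 differed by 0.06 ± 0.25 between the strains at 10 h.

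The gene of the opposing regulator, rgs1, had the largest strain difference of the 9 at 1, 4, 10 and 24 h. In wt, rgs1 stood at 159 and 131 CPM at 0 h, 60.5 and 73.4 at 1 h, 81.7 and 127 at 2 h, 214 and 230.3 at 4 h, 201 and 201 at 10 h and 192 and 163 at 24 h. Its level in clr4D was 165 and 144 CPM at 0 h, 118 and 135 at 1 h, 517 and 451 at 2 h, 1452 and 1166 at 4 h, 1617 and 1392 at 10 h and 788 and 837 at 24 h. The wt libraries fell at 1 h and lay above their 0 h level at 4 h, and the clr4D libraries lay above every wt library of any time from 2 h on. From 0 h, the wt rise was 0.60 ± 0.19 at 4 h and 0.47 ± 0.19 at 10 h. Without wt 0 h replicate 2 these rises were 0.44 and 0.32. The wt fall at 1 h was -1.16 ± 0.21 (adjusted p = 5.8e-05), and the clr4D change over the same hour was -0.30 ± 0.21 (adjusted p = 0.229). The difference between these changes was not tested on its own. The strain difference was 0.96 ± 0.22 at 1 h, 2.20 ± 0.19 at 2 h, 2.57 ± 0.19 at 4 h and 2.90 ± 0.19 at 10 h. The last is 7.48-fold, with an adjusted p of 2.33e-11. At 24 h it was 2.20 ± 0.18. The 1 h call was lost when any of the 4 libraries of that time was left out and when libraries were scaled by their totals alone, with adjusted p up to 0.86. The opposite-strand SPNCRNA.675 rose with rgs1 in clr4D, to 20.1 and 19.7 CPM at 10 h against 6.28 and 4.42 in wt, and its part in the rgs1 values was not tested.

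Of the Ras step, the exchange factor gene ste6 changed far more than the GTPase gene ras1. In wt, ste6 stood at 31.6 and 31.2 CPM at 0 h, 31 and 19.2 at 1 h, 31.3 and 46.3 at 2 h, 93.6 and 67.8 at 4 h, 138 and 132 at 10 h and 132 and 149 at 24 h. In clr4D it stood at 23 and 15.3 CPM at 0 h, 37.7 and 60.3 at 1 h, 177 and 201 at 2 h, 415 and 395 at 4 h, 550.1 and 526 at 10 h and 319 and 307 at 24 h. The wt libraries stayed low to 2 h and were highest at 10 and 24 h, and the clr4D libraries had passed every wt library of any time by 2 h. The strain difference in the change from 0 h to 1 h was not tested on its own. In wt, ste6 was called higher than at 0 h first at 4 h (1.46 ± 0.23), and in clr4D at 1 h (1.24 ± 0.29). That 1 h call was lost without clr4D 1 h replicate 2 (adjusted p = 0.0754). Over the first 10 h, ste6 rose by 2.10 ± 0.22 in wt and by 4.68 ± 0.22 in clr4D, which is 4.3-fold and 25.7-fold. The clr4D rise started from 33 and 7 reads at 0 h, below both wt libraries of that time (-0.59 ± 0.30, not called), so its size depends on that low start. The strain difference at 1 h was 0.82 ± 0.26 and did not pass the threshold (adjusted p = 0.277). It was 2.26 ± 0.18 at 2 h, 2.22 ± 0.17 at 4 h, 1.99 ± 0.16 at 10 h and 1.15 ± 0.15 at 24 h. The 2 h value had an adjusted p of 4.64e-09. The neighbour glm2, on the same strand, and the antisense RNA SPNCRNA.1227 differed between the strains at 10 h by 0.25 ± 0.17 and 0.05 ± 0.34.

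The highest mean of the GTPase gene ras1 was 1.68 times its lowest in wt and 2.47 times in clr4D. In wt, ras1 stood at 67.7 and 72 CPM at 0 h, 48.3 and 49.5 at 1 h, 40.6 and 42.4 at 2 h, 50.6 and 40.7 at 4 h, 59.6 and 49.8 at 10 h and 51.7 and 49.3 at 24 h. The clr4D libraries held it at 66.9 and 56.7 CPM at 0 h, 30.9 and 35.9 at 1 h, 57.5 and 36.6 at 2 h, 74.6 and 63.1 at 4 h, 84.3 and 81.2 at 10 h and 68.4 and 58.8 at 24 h. Levels were lower at 1 h than at 0 h in both strains, and the clr4D libraries lay above those of wt from 4 h on. The change at 1 h was -0.52 ± 0.19 in wt and -0.93 ± 0.23 in clr4D, with adjusted p of 0.0248 and 0.0017. Only at 10 h did the strain difference pass the threshold, at 0.56 ± 0.17 (adjusted p = 0.0154), and this call was lost without clr4D 10 h replicate 1 or without wt 10 h replicate 2 (adjusted p up to 0.106). The 4 h difference of 0.49 ± 0.18 fell short of the threshold (adjusted p = 0.0683). It was called with library totals alone, upper quartile scaling or the replicate number as a block (adjusted p = 0.0327, 0.0473 and 0.0288). None of the 7 calls of ras1 held under every setting tried. On the opposite strand, leu5 was also higher in clr4D at 10 h, by 0.95 ± 0.20, and its part in the ras1 value was not tested.

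The gene of the adaptor Ste4, which binds Byr2, varied over a smaller range than ste6. In wt, ste4 stood at 53.2 and 49.2 CPM at 0 h, 41.2 and 33.5 at 1 h, 59.1 and 62.2 at 2 h, 101 and 67.8 at 4 h, 67.9 and 59.7 at 10 h and 74.5 and 66.9 at 24 h. Its level in clr4D was 53.6 and 39.3 CPM at 0 h, 48.4 and 38.5 at 1 h, 86.8 and 105 at 2 h, 149 and 163 at 4 h, 132 and 147 at 10 h and 90.2 and 109 at 24 h. Both strains had their highest mean at 4 h, and the libraries of the strains did not overlap from 2 h on. The wt rise from 0 h to 4 h was 0.86 ± 0.19, and 0.39 without wt 4 h replicate 1. The strain difference was 0.67 ± 0.17 at 2 h, 0.75 ± 0.16 at 4 h, 1.10 ± 0.16 at 10 h and 0.50 ± 0.15 at 24 h, and the 10 h value had an adjusted p of 1.62e-05. The 10 h call held under all 12 settings run for it. The calls at 2 h and at 24 h were each lost without either wt library or clr4D replicate 2 of that time, with DESeq2 and with scaling by library totals alone, and the 2 h call also with upper quartile scaling. At 4 h the call was lost when only the 4 libraries of that time were fitted (adjusted p = 0.133). The protein-coding gene SPAC1565.03 overlaps ste4 on the opposite strand. In wt, SPAC1565.03 lay between 5.41 and 19.2 CPM at all times, and in clr4D it reached 150 and 125 CPM at 4 h and 172 and 161 CPM at 10 h. Its strain difference at 10 h was 3.68 ± 0.22 (adjusted p = 4.21e-12), and its part in the ste4 values was not tested.

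The kinase gene byr2, at the head of the cascade, had its highest level at 1 h in both strains. In wt, byr2 stood at 30.7 and 14.4 CPM at 0 h, 119 and 136 at 1 h, 78.8 and 90.3 at 2 h, 58 and 58.7 at 4 h, 58.1 and 45.3 at 10 h and 49 and 46.9 at 24 h. In clr4D it stood at 31.3 and 37.1 CPM at 0 h, 132 and 136 at 1 h, 88.9 and 94.6 at 2 h, 91 and 63.1 at 4 h, 73.2 and 95.3 at 10 h and 60.2 and 64 at 24 h. From 2 h on, all libraries lay below those of 1 h and above those of 0 h. The rise at 1 h was 2.41 ± 0.24 in wt (adjusted p = 6.78e-09) and 2.02 ± 0.24 in clr4D (adjusted p = 1.17e-07). In the wt 0 h group the replicates differed, with replicate 2 at 14.4 CPM. Without that library the wt rise at 24 h was no longer called (adjusted p = 0.059). The strain difference passed the threshold only at 10 h, at 0.64 ± 0.19 (adjusted p = 0.0168), and this call was lost without wt 10 h replicate 2 or without clr4D 10 h replicate 2 (adjusted p up to 0.181). The opposite-strand mrpl7 differed by -0.11 ± 0.19 between the strains at 10 h.

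The next kinase gene, byr1, changed least. In wt, byr1 stood at 179 and 163 CPM at 0 h, 85.6 and 145 at 1 h, 130.4 and 127 at 2 h, 134 and 142 at 4 h, 124 and 135 at 10 h and 127 and 129.8 at 24 h. The clr4D libraries held it at 153 and 164 CPM at 0 h, 129 and 118 at 1 h, 125 and 144 at 2 h, 178 and 164 at 4 h, 141 and 170.2 at 10 h and 128 and 152 at 24 h. The libraries of the strains overlapped at every time but 4 and 10 h, and at those times the clr4D libraries lay above the wt libraries. The strain difference was 0.33 ± 0.17 at 4 h and 0.27 ± 0.16 at 10 h, neither past the threshold (adjusted p = 0.204 and 0.237). With libraries scaled by their totals alone, the 4 h difference was 0.64 and was called (adjusted p = 0.0308). In wt, byr1 was called lower than at 0 h at 1, 2, 10 and 24 h, by -0.68 ± 0.17 at 1 h and -0.42 ± 0.17 at 10 h. None of these 4 calls held under every setting tried, and with libraries scaled by their totals alone the 10 h change was 0.05 and the 24 h change 0.08. In clr4D, byr1 was called at no time against 0 h. With libraries scaled by their totals alone, it was called higher in clr4D at 4 and 10 h, by 0.57 and 0.56 (adjusted p = 0.0191 and 0.0169). The antisense RNA SPNCRNA.674 differed by -0.26 ± 0.39 between the strains at 10 h.

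The gene of the MAPK itself, spk1, rose in both strains, and its change by 2, 10 and 24 h was larger in clr4D. In wt, spk1 stood at 172 and 184 CPM at 0 h, 200 and 222 at 1 h, 291 and 344 at 2 h, 564 and 558 at 4 h, 419.9 and 379 at 10 h and 469 and 457 at 24 h. Its level in clr4D was 176 and 161 CPM at 0 h, 299 and 299 at 1 h, 901 and 848 at 2 h, 1275 and 1113 at 4 h, 1192 and 1188 at 10 h and 921 and 877 at 24 h. From 2 h on, both clr4D libraries lay above every wt library of any time, and the mean of each strain was highest at 4 h, in clr4D with 10 h close to it. The wt rise from 0 h was 0.84 ± 0.15 at 2 h and 1.66 ± 0.15 at 4 h, and the clr4D rise was 2.36 ± 0.16 and 2.81 ± 0.16 at the same times. The strain difference was 0.51 ± 0.15 at 1 h (adjusted p = 0.232), 1.46 ± 0.14 at 2 h, 1.09 ± 0.14 at 4 h, 1.57 ± 0.15 at 10 h and 0.96 ± 0.14 at 24 h. The 10 h value is 2.97-fold, with an adjusted p of 1.3e-08. The 4 h call was lost when only the 4 libraries of that time were fitted (adjusted p = 0.177). The opposite-strand hem4, a gene of haem synthesis, was called lower in clr4D at 10 h, at -0.90 ± 0.22.

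At the end of the pathway, the formin gene fus1 rose within 1 h in both strains and then much further in clr4D. In wt, fus1 stood at 51.4 and 40.8 CPM at 0 h, 110 and 119.7 at 1 h, 118 and 127 at 2 h, 187 and 126 at 4 h, 142 and 127 at 10 h and 109 and 119 at 24 h. In clr4D it stood at 53.6 and 28.4 CPM at 0 h, 152 and 153 at 1 h, 457 and 435 at 2 h, 778 and 669 at 4 h, 701 and 558 at 10 h and 342 and 344 at 24 h. The wt libraries stayed between 109 and 187 CPM from 1 h on, and the clr4D libraries lay above all of them from 2 h to 24 h. The rise from 0 h to 1 h was 1.29 ± 0.22 in wt and 1.74 ± 0.22 in clr4D, and the strains did not differ past the threshold at that time (0.42 ± 0.19, adjusted p = 0.698). The strain difference was 1.86 ± 0.17 at 2 h, 2.13 ± 0.17 at 4 h, 2.21 ± 0.17 at 10 h and 1.59 ± 0.17 at 24 h. The 10 h value is 4.64-fold with an adjusted p of 7.59e-10, and the calls from 2 h to 24 h held under all 12 settings run for each. The opposite-strand caf16 and SPNCRNA.1026 differed between the strains at 10 h by -0.32 ± 0.21 and -1.01 ± 0.45, with adjusted p of 0.287 and 0.105.

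**Figure D2:**
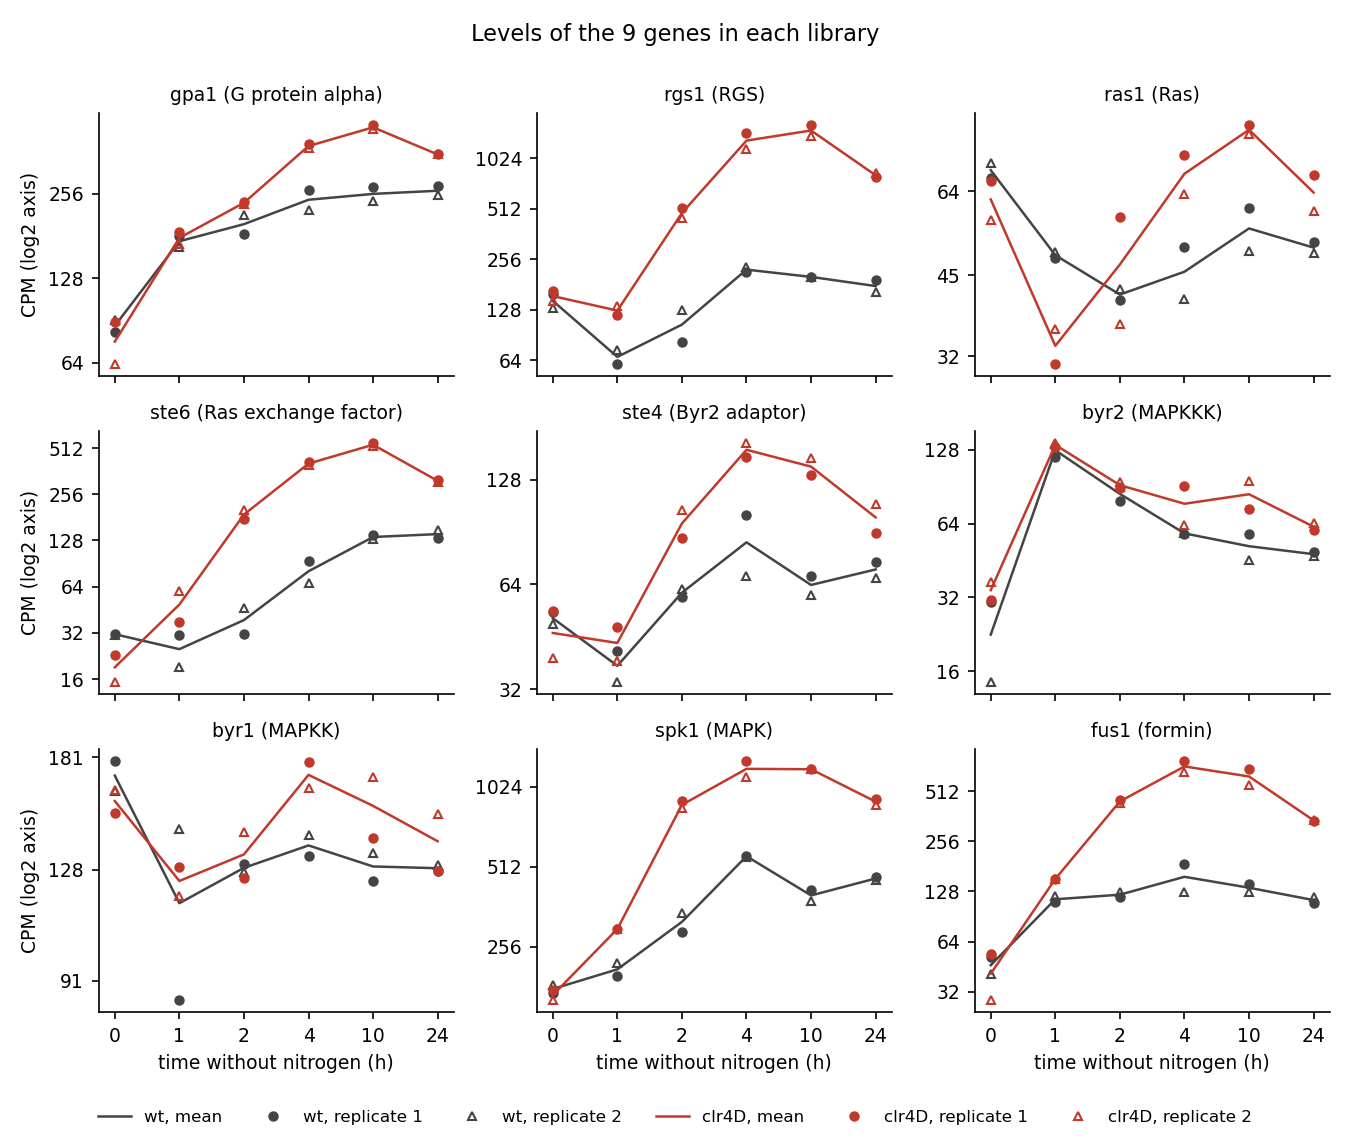
Level of each of the 9 genes (CPM, log2 axis, each panel with its own range) against time without nitrogen (h, times evenly spaced). Points are single libraries, filled circles for replicate 1 and open triangles for replicate 2, and lines join the means of 2 libraries. From 2 h on the clr4D libraries of rgs1, ste6, spk1 and fus1 lie above all wt libraries. In both strains byr2 is highest at 1 h and byr1 has the smallest range of means.

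Starvation itself moved a large share of all genes, so the counts of members against 0 h stand beside a high background. In wt at 1 h, fus1, byr2 and gpa1 were called higher and ras1, byr1 and rgs1 lower, against 26.5% of all genes higher and 26.9% lower. At 2 h spk1 was added to the genes called higher, against 26.4% and 27.6%. At 4 h, 7 of 9 were higher and only ras1 was lower, against 25.2% and 25.8%. At 10 h, 6 were higher and byr1 lower, against 23.6% and 26.9%. At 24 h, 6 were higher and ras1 and byr1 lower, against 23.7% and 28.6%. With libraries scaled by their totals alone, which moved the median of all genes in wt by up to 0.491, the wt counts higher and lower became 3 and 2 at 1 h, 4 and 0 at 2 h, and 7 and 0 at 4, 10 and 24 h. Under that scaling no lower call in wt was left after 1 h, and that of ras1 at 1 h was lost too.

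In clr4D at 1 h, fus1, spk1, byr2, gpa1 and ste6 were called higher and ras1 lower, against 26.4% of all genes higher and 25.8% lower. At 2 h, 7 of 9 were higher and ras1 was lower, against 26% and 26.3%. The same 7 genes, all but ras1 and byr1, were higher at 4, 10 and 24 h, and none was lower. The share of all genes was 24.3% higher and 24.9% lower at 4 h, 27.4% and 27.3% at 10 h, and 25.4% and 29.3% at 24 h. The median change of the 9 genes from 0 h to 10 h was 2.46 in clr4D and 1.17 in wt. With scaling by library totals alone, 9 of 9 were called higher in clr4D at 10 h and ras1 was no longer called lower at 2 h.

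**Figure D3:**
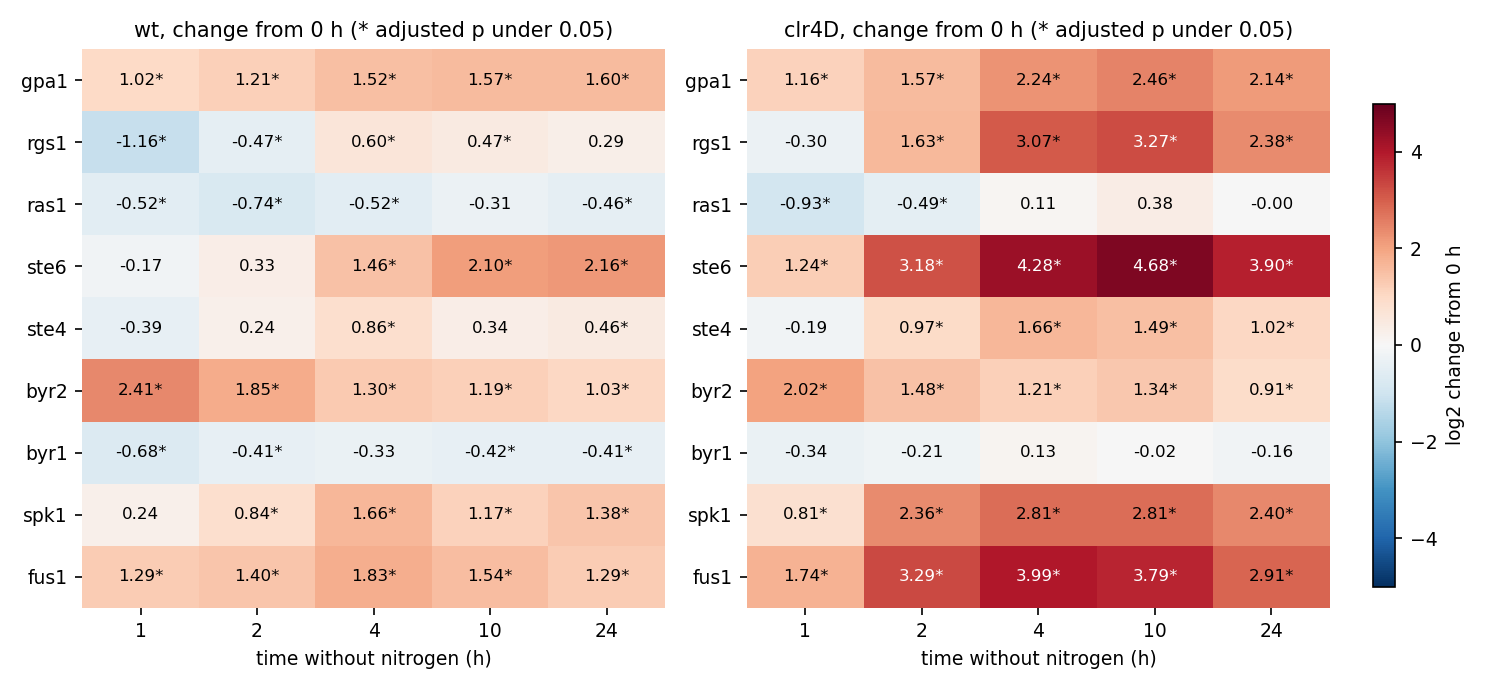
Log2 change of each of the 9 genes (rows) from 0 h at each later time (columns, h), in the wt libraries (left) and the clr4D libraries (right). An asterisk marks an adjusted p under 0.05. The largest changes, in ste6 and fus1, are in clr4D, byr2 starts from its highest value at 1 h in both panels, and ras1 and byr1 stay between -0.93 and 0.38, with the wt falls after 1 h lost under scaling by library totals alone.

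Steps between the later times were tested within each strain. Between 4 and 10 h in wt, ste6 was called higher (0.64 ± 0.18) and spk1 lower (-0.49 ± 0.14), against 1.78% and 5.76% of all genes. Neither call held with only the libraries compared, nor without either wt 10 h library. Between 10 and 24 h in wt, 0 of 9 were called and 0 of 9 had an unadjusted p under 0.05, and DESeq2 called 0, against 0.6% higher and 0.9% lower among all genes. Between 4 and 10 h in clr4D, 0 of 9 were called by edgeR, 1 had an unadjusted p under 0.05 and DESeq2 called 0, against 4.64% and 3.64%. Between 10 and 24 h in clr4D, rgs1 fell by 0.89 ± 0.17, fus1 by 0.88 ± 0.16, ste6 by 0.78 ± 0.15 and ste4 by 0.48 ± 0.15 (log2, SE), against 8.67% of all genes called lower and 5.26% higher. The fall of ste4 was lost in 7 of 12 settings, and the other falls held in all 12.

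Whether the strains differed in their change from 0 h was tested directly. From 0 h to 2 h, the change was larger in clr4D for ste6 by 2.85 ± 0.35, for rgs1 by 2.09 ± 0.27, for fus1 by 1.90 ± 0.30 and for spk1 by 1.52 ± 0.21 (log2, SE). These 4 of 9 stood against 0.265% of all genes with a higher and 0.0353% with a lower change, and fus1 missed the threshold, at an adjusted p of 0.0514, once wt 0 h replicate 1 was left out. From 0 h to 10 h, 6 of 9 were called, the same 4 with ste4 (1.16 ± 0.28) and gpa1 (0.89 ± 0.21), against 4.17% higher and 3.11% lower. With wt 0 h replicate 1 left out, ste4 was no longer called (adjusted p = 0.0739), and gpa1 was not with wt 0 h replicate 2 or clr4D 0 h replicate 2 left out (adjusted p up to 0.0682). From 0 h to 24 h, the first 4 were called again, against 0.83% and 0.141%. Without wt 0 h replicate 1 or without wt 0 h replicate 2 the 24 h count was 2, and the spk1 call was also lost without wt 24 h replicate 2 or clr4D 0 h replicate 2. Over all 6 times together, an F test called 5 of 9 (rgs1, fus1, ste6, spk1 and gpa1) against 6.87% of all genes. The gpa1 call in it was lost in 8 of 31 settings, library totals alone among them (adjusted p up to 0.0925). For byr2 and byr1 the difference in the 10 h change was 0.15 ± 0.37 and 0.40 ± 0.24, and for ras1 it was 0.69 ± 0.26 (adjusted p = 0.106).

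Across the 12 group means of log2 CPM, the 9 genes did not share a single course. The closest pair was ste6 and spk1 (Pearson r = 0.959), followed by spk1 and fus1 (0.946) and by ste4 and spk1 (0.945). The genes byr2 and byr1 ran opposite to each other (-0.616), and so did byr2 and ras1 (-0.496). These values describe 12 points that share strains, times and libraries, and carry no test. Of the other tested genes, the one most like ste6 was map3 (r = 0.973), the M-factor receptor gene. The one most like spk1 was shk2 (0.982), a p21-activated kinase gene, and the one most like fus1 was rep1 (0.960), a transcriptional activator gene of premeiotic S phase. Closest to rgs1 and gpa1 were the non-coding RNAs SPNCRNA.569 (0.991) and SPNCRNA.920 (0.987). Closest to ste4 was SPAPB15E9.02c (0.961), to byr2 SPCC63.13 (0.973), to byr1 utr4 (0.961) and to ras1 the sirtuin gene hst2 (0.935).

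The other genes of the pathway were taken from lists by role and read in the same tests at 10 h, when 12% of all genes were called higher in clr4D and 12% lower. Of 11 genes for pheromones, their processing, receptors and proteases, 9 were higher in clr4D and none lower, with a median difference of 3.93 against -0.02 for all genes. The M-factor gene mfm3 stood at 764 and 960 CPM in clr4D at 10 h and at 0.392 and 1.11 CPM, or 1 read in each library, in wt. The P-factor receptor gene mam2, which M cells use, stood at 1972 and 1925 CPM against 5.49 and 7.74 in wt. The M-factor receptor gene map3, which P cells use, stood at 2667 and 2098 CPM against 349 and 307, a difference of 2.86 ± 0.26. For these genes the clr4D libraries lay far above those of wt. In wt, 3 of the 11 rose from 0 h to 10 h, a share near the 23.6% of all genes called higher, the largest rise being that of the P-factor gene map2, 4.92 ± 0.38.

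Of 9 genes for agglutinins, cell fusion and nuclear fusion, 7 were higher in clr4D at 10 h and none lower, with a median of 2.72. The largest was dni2, a membrane protein gene of cell fusion, at 360 and 325 CPM against 14.9 and 12.2 in wt. Of 8 tested transcription factors and switch genes, 4 were higher (mei2, nrd1, pat1 and ste11) and pac2 was lower (-0.70 ± 0.19), with a median of 0.71. The gene of Ste11, the mating transcription factor, stood at 957 and 812 CPM in clr4D at 10 h and at 364 and 415 in wt, a difference of 1.19 ± 0.33 (adjusted p = 0.0148). The gene of the meiotic RNA-binding protein Mei2 rose in wt too, by 2.69 ± 0.34 from 0 h to 10 h, and its strain difference at 10 h was 1.37 ± 0.32. The kinase gene pat1 had the largest strain difference of this list, 1.90 ± 0.42.

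Of 9 partners and modulators of the Ras and MAPK steps, only gap1 was higher in clr4D at 10 h, and scd1 and efc25 were lower, with a median of -0.02. Beside the 12% of all genes called in each direction, these counts are near the background. The gene gap1, which encodes the GTPase-activating protein of Ras1, stood at 202 and 207 CPM against 87.1 and 90.7 in wt, a difference of 1.21 ± 0.13. The second exchange factor gene of Ras1, efc25, differed the opposite way from ste6, by -0.73 ± 0.14, after a rise of 1.41 ± 0.16 from 0 h to 10 h in wt. In wt over the same hours the 14-3-3 gene rad24 fell by 1.46 ± 0.20. For comparison, of 7 genes of the other MAPK modules pmk1 was higher (0.80 ± 0.15) and win1 lower (-0.48 ± 0.13), with a median of -0.29, again near the 12% of all genes in each direction, and win1 rose by 0.94 ± 0.14 in wt from 0 h to 10 h. Of the 2 other formin genes, for3 was higher in clr4D by 0.82 ± 0.14, and cdc12 rose in wt by 0.42 ± 0.13.

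**Figure D4:**
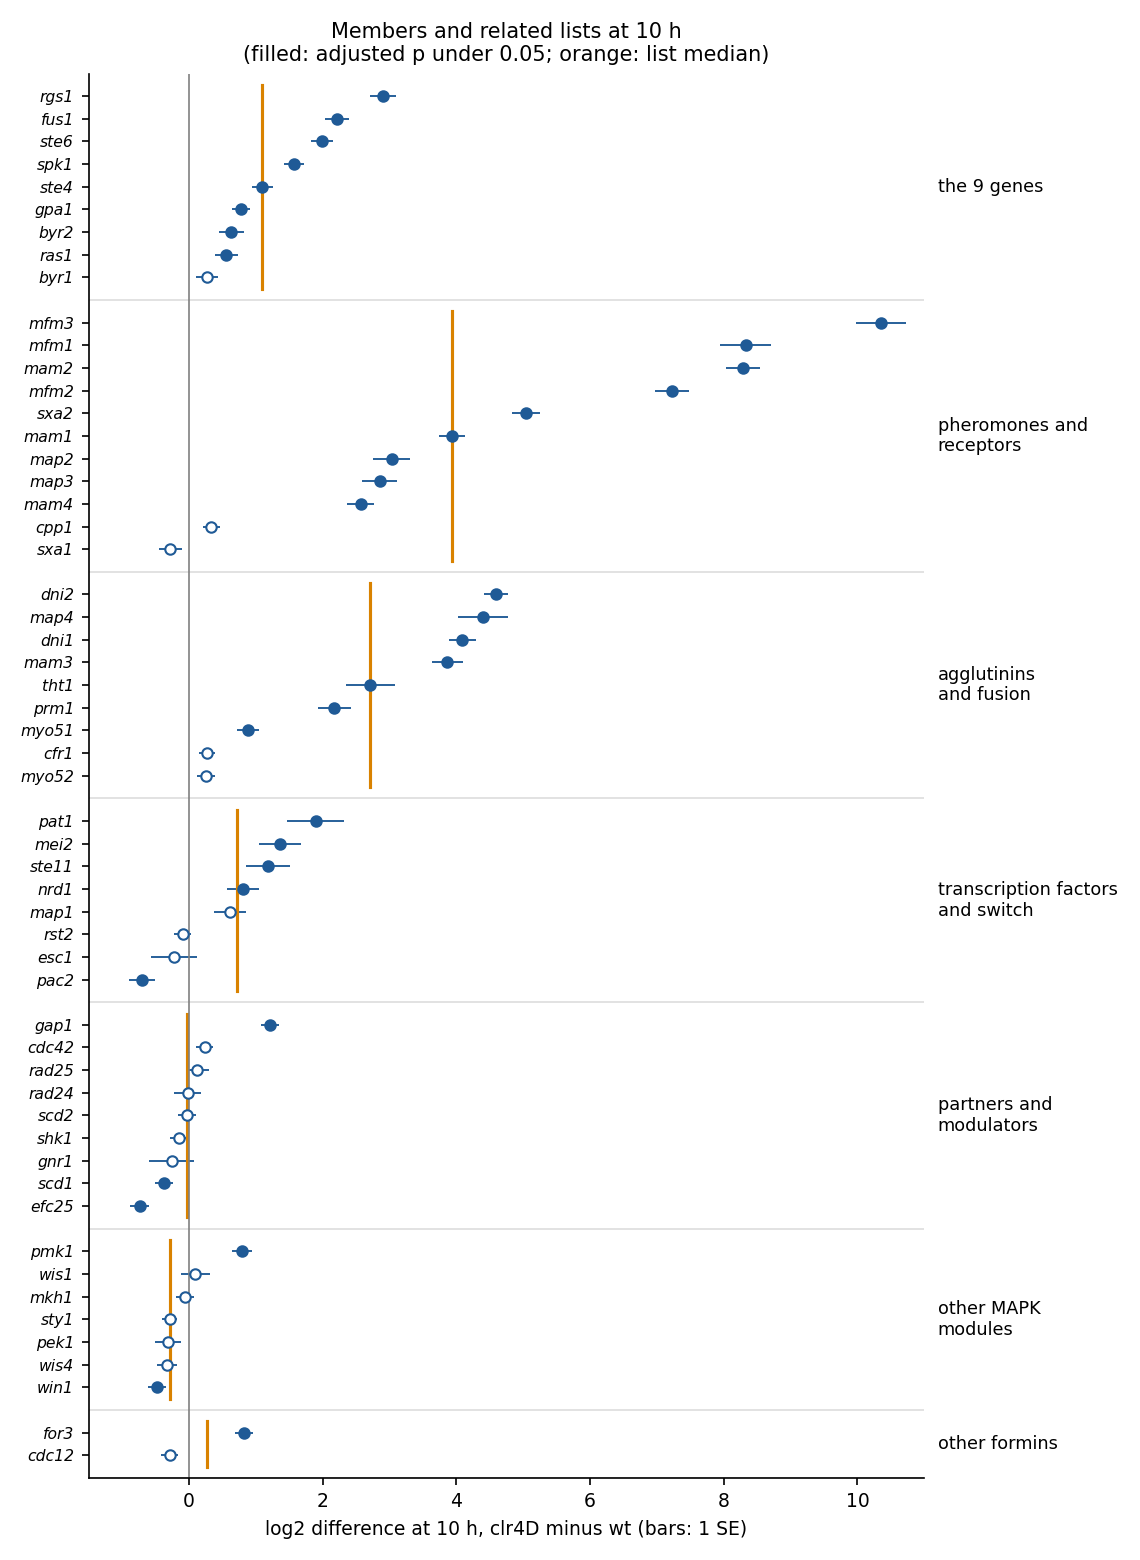
Log2 difference at 10 h (clr4D minus wt, horizontal axis) for the 9 genes and for related genes grouped by role. Points are fitted differences with bars of 1 SE, filled where the adjusted p was under 0.05, and orange lines are list medians. Most pheromone, receptor and fusion genes lie to the right of 0, and most Ras and MAPK partners and the other MAPK genes lie near 0, while the position of mfm3 depends on a single read per wt library.

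Summed markers of M cells were also higher in the clr4D libraries at all times, those of P cells from 1 h on and those of zygotes from 4 h on. At 0 h the M-cell markers held 181 to 205 CPM in clr4D and 144 to 173 in wt, with only mfm2 called higher. At 1 h they held 353 to 434 CPM in clr4D and 201 to 209 in wt, and the P-cell markers 322 to 327 and 136 to 169. Summed over 9 M-cell markers, the wt libraries held 144 to 251 CPM at all times, while the clr4D libraries rose from 181 to 205 CPM at 0 h to 2789 to 2923 at 2 h and 9244 to 10810 at 10 h. The cassette genes mat1-Mc and mat1-Mi were at 0 reads in all libraries, but they have near-identical copies and reads aligned to more than 1 place were not counted. All 7 tested M-cell markers were called higher in clr4D at 10 h, several of them also genes of the lists above. Summed over the 3 P-cell markers found (map2, map3 and map4), the wt libraries held 110 to 139 CPM at 0 h and 769.5 to 809 at 10 h, and the clr4D libraries 100 to 150 and 6555 to 7053. The P-cell markers mat1-Pc and mat1-Pi were not matched. Summed over 4 zygote and meiosis markers (mei3, mei4, dmc1 and isp3), the wt libraries stayed between 24.0 and 62.3 CPM. The clr4D libraries were at 24.0 to 61.8 up to 2 h, at 121 to 152 at 4 h, and at 5672 to 12125 at 10 h, most of it isp3. At 24 h the M-cell markers were at 4279 to 4982 CPM in clr4D, the P-cell markers at 4036 to 4042 and the zygote markers at 7329 to 14705, while the median strain difference of the 9 genes was 1.10 at 10 h and 0.50 at 24 h. At 2 h, 5 of the 9 genes, 7 of 7 tested M-cell markers and 3 of 3 P-cell markers were called higher in clr4D, against 1.32% of all genes. Of the 4 zygote markers 0 were called at 2 h, and their sum was 51.8 to 61.8 CPM in clr4D and 33.7 to 61.4 in wt. The part of M-like, P-like or zygotic cells in the strain differences of the 9 genes was not tested.

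**Figure D5:**
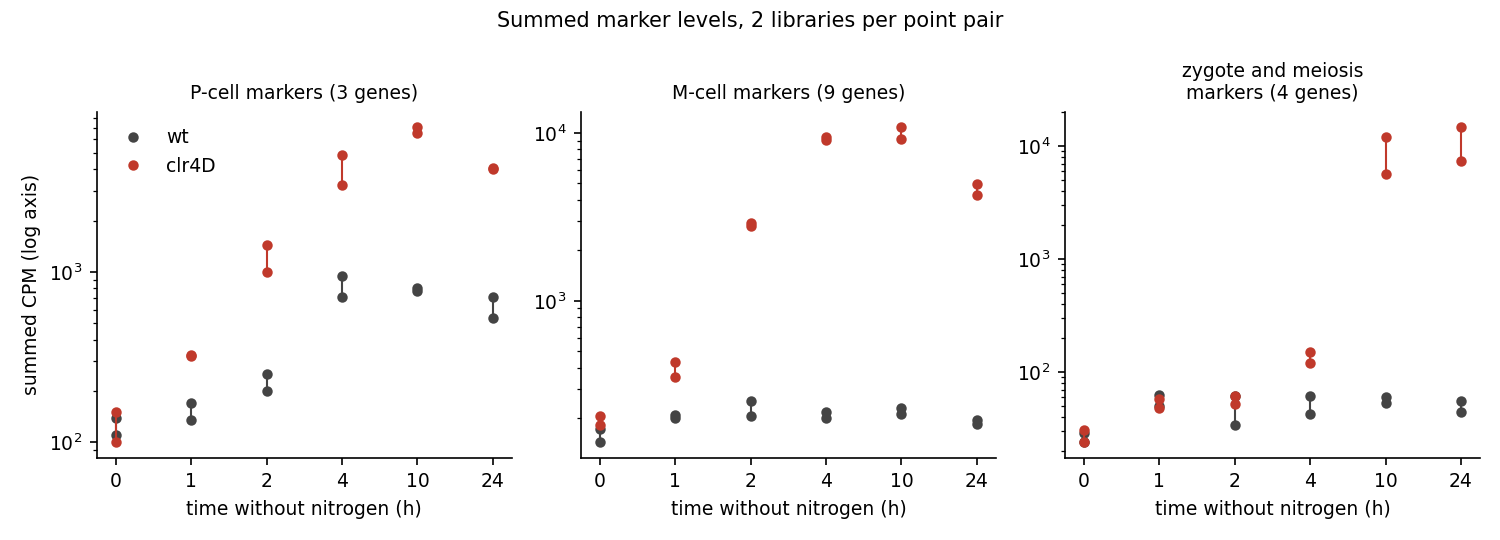
Summed level of P-cell, M-cell and zygote or meiosis markers (CPM, log axis) against time without nitrogen (h, times evenly spaced). Points are the 2 libraries of a group, joined by a line. M-cell markers stay between 144 and 251 CPM in wt and reach 10810 CPM in clr4D, and zygote markers in clr4D lie above those of wt from 4 h on.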

How the data were processed

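Total RNA came from hot phenol extraction, RNeasy columns and DNase I; ribosomal RNA was removed with Ribo-Zero and libraries were directional (NEBNext), per the labels' protocols. The deposited values are read counts per annotated transcript. Per the submitters' processing notes, the authors used TopHat2 2.0.8, HTSeq 0.6.1 and the ASM294v2 build. How strand was set in counting, and which annotation was used, is not given in the sources used here. Counts of 6878 features were summed to 6877 genes. Reads that HTSeq gave to no gene (2.09% to 5.14% outside features, 0.945% to 1.41% ambiguous between features, 5.43% to 12.4% aligned to more than 1 place) stayed out of library sizes and tests. Names and overlapping features came from the RefSeq annotation of another build, ASM294v3, which matched 6705 genes; no positions or sequences are printed, since the builds differ.

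Counts were filtered (filterByExpr, 5664 genes kept), scaled by TMM (factors 0.695 to 1.26) and fitted in edgeR 4.0.16 (R 4.3.3) by robust quasi-likelihood with 12 group means and 12 residual degrees of freedom, tested on simulated data first. The 24 comparisons used two-sided F tests with Benjamini-Hochberg adjustment over the 5664 genes. SE is the log2 difference over the root of F. Levels set side by side between genes were not corrected for length, so they are compared within a gene only. Alternatives were DESeq2 1.42.0 and its size factors, upper quartile scaling, library totals, no filter, a replicate block, only the libraries compared, and libraries left out. Likeness is Pearson's r over 12 group means of log2 CPM (prior count 2). Besides the 9 genes and clr4, the rule for named genes takes the gene most like each, 5 landmark genes (ste11, mei2, map3, mam2, gap1) and the largest called rise and fall of each list at 10 h against wt and in wt against 0 h. Overlapping features were read for every member. The members and lists were chosen with earlier results of these data known, so no list count is independent support.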

Additional observations from a re-analysis of the deposited data

Results flagged for a closer look

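The change from 0 h differed between the strains, by a direct test of that difference in edgeR, in the following genes. By 2 h it was larger in clr4D by 1.90 for fus1, 2.09 for rgs1, 1.52 for spk1 and 2.85 for ste6 (log2). By 10 h it was larger by 1.16 for ste4, 2.25 for fus1, 2.80 for rgs1, 1.64 for spk1, 0.89 for gpa1 and 2.58 for ste6. By 24 h it was larger by 1.63 for fus1, 2.09 for rgs1, 1.02 for spk1 and 1.74 for ste6. Over all times together, the adjusted p of the strain difference in the course was 1.2e-05 for fus1, 9.14e-07 for rgs1, 8.46e-05 for spk1, 0.0296 for gpa1 (lost in 8 of 31 settings, up to 0.0925) and 1.38e-05 for ste6.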

How the results depend on the processing

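Of 1719 values of single members recomputed under other settings, 1632 stayed on their side of the threshold, with the same direction where called. Of the rest, 61 lost and 21 gained a call and 5 reversed. Of 1152 recomputed with a library left out, 1063 stayed so, 82 lost and 7 gained a call. A change of sign in a value called under neither setting was not counted as a reversal. The F test over all times has no direction. All 5 reversals came with scaling by library totals alone: byr1 from 0 h to 10 h (0.047 in wt, 0.56 in clr4D) and 24 h (0.081 in wt), and ras1 from 0 h to 24 h (0.028 in wt, 0.59 in clr4D). That scaling moved the median of all genes by 0.459 and 0.491 at those times in wt and by 0.609 and 0.637 in clr4D.

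Counts of called members moved by over 1.5 times as follows. For clr4D against wt, 1 h gave 0 with library totals, 2 with DESeq2 and 0 with any 1 library of that time left out, and 4 h gave 3 with only the libraries compared. From 0 h in wt, 2 h gave 4 with library totals, and 24 h gave 5 with DESeq2, 5 with wt 0 h replicate 2 and wt 4 h replicate 2 left out together (2 libraries held in doubt from earlier results of these data), and 4 to 5 with 1 library left out. For 4 h to 10 h, wt gave 1 with RLE size factors, library totals, upper quartile scaling, no filter or those 2 libraries left out, 0 with only the libraries compared and 0 to 2 with 1 left out, and clr4D gave 1 with those 2 left out. The strain difference in the 24 h change gave 2 to 4 with 1 library left out. The cause was not tested.

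Same-numbered replicates were not treated as pairs, since the labels tie them to nothing shared and not every correlation was over 0.1: their deviations correlated at -0.077 to 0.334 between groups, over 0.1 in 23 of 66 pairs. With the replicate number as a block, clr4D against wt called 7 of 9 at 4 h (6 without the block) and 8 at 10 h (8), clr4D 10 h against 0 h called 8 (7), clr4D 24 h against 10 h 5 (4), wt 10 h against 4 h 3 (2) and the F test over all times 6 (5); the counts of the other comparisons did not move. Calls kept under every setting were 17 of 19 for fus1, 14 of 18 for rgs1, 15 of 18 for ste6 and for spk1, 11 of 15 for gpa1, 8 of 11 for byr2, 5 of 12 for ste4, 0 of 7 for ras1 and 0 of 4 for byr1. Each group had 2 libraries, with as few as 637723 gene reads in one, which limits the precision of small differences.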

Other observations

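At 2 h, when 1.32% of all genes were called higher in clr4D and 0.23% lower, 9 of 11 pheromone and receptor genes and 5 of 9 agglutinin and fusion genes were higher in clr4D. Near the share of all genes, 0 of 8 transcription factor and switch genes, 0 of 9 Ras and MAPK partners and 0 of 7 genes of the other MAPK modules were called in either direction. The receptor gene mam2 stood at 561 and 536 CPM in clr4D and at 4.64 and 4.75 CPM in wt at 2 h. The gene of the transcription factor Ste11 stood at 359 and 331 CPM in clr4D and at 140 and 206 CPM in wt at 2 h, a difference of 0.99 ± 0.34 (log2, SE) that did not pass the threshold (edgeR, adjusted p = 0.313). For gap1 the strain difference was 0.45 ± 0.14 at 2 h, short of the threshold, and 0.72 ± 0.14 at 4 h, past it with an adjusted p of 0.00103. Differences between counts or in timing between the lists were not tested.

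Of the genes whose course was most like that of a member, several differed more between the strains at 10 h than that member did. For shk2, nearest to spk1, the difference was 4.45 ± 0.20 beside 1.57 ± 0.15 for spk1. For rep1, nearest to fus1, it was 3.35 ± 0.19 beside 2.21 ± 0.17, and for SPAPB15E9.02c, nearest to ste4, 2.64 ± 0.20 beside 1.10 ± 0.16. They were picked for likeness over groups that include 10 h, so these values are descriptions only.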
